A study of Mus musculus with 2 samples.

Results

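Cells show fragments of their own proteins on major histocompatibility complex (MHC) class I molecules, and 8 mouse genes of that route were followed here through the cell types of pancreatic islets. The genes were taken by symbol from the 27998 genes listed in the deposited tables: B2m (ENSMUSG00000060802), H2-K1 (ENSMUSG00000061232), H2-D1 (ENSMUSG00000073411), H2-T23 (ENSMUSG00000067212), Tap1 (ENSMUSG00000037321), Tap2 (ENSMUSG00000024339), Tapbp (ENSMUSG00000024308) and Nlrc5 (ENSMUSG00000074151). Each symbol matched 1 listed gene, and no measured value entered the rule.

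A class I molecule is a heavy chain, encoded by genes such as H2-K1 and H2-D1, bound to the small light chain beta-2-microglobulin, which B2m encodes. Proteasomes cut cytosolic proteins into peptides, the transporter made of the Tap1 and Tap2 products carries them into the endoplasmic reticulum, and tapasin, the product of Tapbp, holds empty heavy chains at the transporter until a peptide fits. Nlrc5 encodes a transcriptional activator of this set, and interferons raise most of its members. In islets the class I molecules of beta cells are known as the targets that CD8 T cells recognise in autoimmune diabetes.

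The cells came from wild-type C57BL/6J mice, an inbred laboratory strain, with no gene altered in either group. 5 mice had received a diet with 60% fat (high-fat diet, HFD) and 4 mice regular chow, each for 6 weeks from weaning on. Each diet is represented by 1 droplet single-cell library of 10x Genomics 3' v2 chemistry. Islets were picked by hand and kept in culture overnight before the cells were dispersed. The mouse behind a given cell is not known from the sources used here. The HFD library held 4539 barcodes with 68544729 unique molecular identifiers (UMIs) and the chow library 6509 barcodes with 89292222 UMIs. Medians were 13911 UMIs per barcode in HFD and 12414 in chow, and 45 barcode sequences occurred in both libraries.

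Cell types were set by their hormone or marker counts. Beta cells had at least 20% of their UMIs from the insulin genes Ins1 and Ins2, alpha cells at least 5% from Gcg, delta cells at least 1% from Sst and PP cells at least 15% from Ppy, in that order. Of the remaining cells, those with at least 10 UMIs of Plvap, Kdr and Flt1 were taken as endothelial and those with at least 10 UMIs of C1qa, C1qb and Lyz2 as macrophages. The HFD library gave 3100 beta, 402 alpha, 388 delta and 160 PP cells, 126 endothelial cells and 70 macrophages. The chow library gave 4574 beta, 779 alpha, 468 delta and 203 PP cells, 170 endothelial cells and 54 macrophages. A further 148 HFD cells and 139 chow cells met no rule. Of the 6 lists of markers that the rules did not use, each had its highest summed level in the type of its name in both libraries, but the endocrine lists were shared between types. The PP list, led by Pyy, had 100057 counts per 1000000 UMIs (CPM) in HFD PP cells and 132474 CPM in chow PP cells, yet also 83600 (HFD) and 90020 (chow) CPM in delta cells and 31905 (HFD) and 34499 (chow) CPM in alpha cells. Delta cells had 45722 (HFD) and 59044 (chow) CPM of the beta list, led by Iapp and with Mafa at 0, and 5397 (HFD) and 6498 (chow) CPM of their own list. Alpha cells had 26749 (HFD) and 27997 (chow) CPM of theirs. Pecam1, Cdh5, Esam, Emcn, Egfl7 and Cldn5 together reached 9091 CPM in HFD endothelial cells and 8855 CPM in chow endothelial cells. C1qc, Csf1r, Cd68, Adgre1, Fcer1g, Tyrobp and Ctss together reached 14328 CPM in HFD macrophages and 14993 CPM in chow macrophages.

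The stretch before the start of B2m and of both classical heavy-chain genes is shown because these 3 genes carry most UMIs of the 8 and differ in how far their levels parted between the diets. Sequences are from the RefSeq promoter table on build GRCm38.p6, the last 250 bases before the listed start, and 6 of the 8 genes had an entry (Tap2 and Nlrc5 had none). Capitals mark a match to the core of the interferon-stimulated response element on either strand.
B2m, chr2:122147437-122147686, plus strand: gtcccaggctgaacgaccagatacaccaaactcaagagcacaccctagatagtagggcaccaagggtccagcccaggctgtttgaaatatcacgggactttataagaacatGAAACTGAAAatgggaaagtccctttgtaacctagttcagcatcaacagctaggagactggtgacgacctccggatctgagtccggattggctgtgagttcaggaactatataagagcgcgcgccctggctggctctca
H2-K1, chr17:34000348-34000597, minus strand: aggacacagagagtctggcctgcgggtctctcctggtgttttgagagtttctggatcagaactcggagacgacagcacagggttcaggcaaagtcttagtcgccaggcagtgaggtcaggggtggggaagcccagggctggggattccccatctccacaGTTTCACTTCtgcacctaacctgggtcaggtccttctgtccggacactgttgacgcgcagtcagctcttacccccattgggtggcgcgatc
H2-D1, chr17:35262844-35263093, plus strand: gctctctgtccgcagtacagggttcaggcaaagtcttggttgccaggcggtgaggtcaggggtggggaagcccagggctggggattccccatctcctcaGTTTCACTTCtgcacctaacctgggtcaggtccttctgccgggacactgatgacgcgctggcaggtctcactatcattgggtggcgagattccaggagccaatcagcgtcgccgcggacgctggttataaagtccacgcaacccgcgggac
The core searched first was GAAANNGAAA, on both strands, which 2.98% of 32851 promoter entries of this length held. It lay 139 bases before the start of B2m and 124 bases before that of H2-T23, and was not found in this window of H2-K1, H2-D1, Tap1 or Tapbp. A shorter core, GAANNGAAAC, was added after the sequences had been seen and occurred in 1.45% of the entries. It lay 91 bases before the start of H2-K1, in the first of its 2 entries, and 151 bases before that of H2-D1, in both genes on the opposite strand, and in none of the other 4 genes. The gamma-activated core TTCNNNGAA, held by 7.02% of the entries, was not found in any of the 6 windows. A match describes letters and shows no bound factor.

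Levels are summed UMIs of a type in a library per 1000000 UMIs of that type, with exact Poisson 95% intervals that cover counting error only. UMIs count the 3' ends of molecules, so they do not grow with transcript length. B2m, the light chain, stood at 4594 CPM in HFD macrophages and 6707 CPM in chow macrophages. It had 2814 CPM in HFD endothelial cells and 2491 CPM in chow endothelial cells. In delta cells it had 153 CPM in HFD and 218 CPM in chow, in alpha cells 76.9 (HFD) and 143 (chow) CPM, and in PP cells 64.0 (HFD) and 130 (chow) CPM. Beta cells were lowest on these totals, with 52.5 CPM (50.6 to 54.5) in HFD and 96.3 CPM (94.1 to 98.6) in chow. The B2m level of macrophages was thus 87.4 times that of beta cells in HFD and 69.6 times in chow, and that of endothelial cells 53.6 times in HFD and 25.9 times in chow. With hormone genes left out of the totals, the folds were 35.8 in HFD and 28.2 in chow for macrophages. For endothelial cells they were then 22.2 in HFD and 10.5 in chow.

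The heavy chains spread far less across cell types than the light chain. H2-K1 had 753 CPM in HFD macrophages and 1036 CPM in chow macrophages, 1085 (HFD) and 868 (chow) CPM in endothelial cells, 424 (HFD) and 503 (chow) CPM in delta cells, 276 (HFD) and 320 (chow) CPM in PP cells, and 256 (HFD) and 274 (chow) CPM in alpha cells. It had 184.8 CPM in HFD beta cells against 220.8 CPM in chow beta cells. H2-D1 had 1416 CPM in HFD macrophages and 1915 CPM in chow macrophages, 1544 (HFD) and 1356 (chow) CPM in endothelial cells, 464 (HFD) and 475 (chow) CPM in delta cells, 241 (HFD) and 344 (chow) CPM in PP cells, and 220 (HFD) and 250.5 (chow) CPM in alpha cells, with 101 CPM in HFD beta cells against 130.0 CPM in chow beta cells. Macrophages exceeded beta cells 4.08-fold in HFD and 4.69-fold in chow for H2-K1, and 14.0-fold in HFD and 14.7-fold in chow for H2-D1. Without hormone genes in the totals the folds were 1.67 in HFD and 1.90 in chow for H2-K1. For H2-D1 they were then 5.72 in HFD and 5.97 in chow. Within the endocrine cells both heavy chains were highest in delta cells and lowest in beta cells in each library, on the full totals. With hormone genes left out of the totals, H2-K1 was lower in alpha than in beta cells, at 0.805 of the beta level in HFD and 0.690 in chow, and so was B2m, at 0.850 in HFD and 0.826 in chow. H2-T23, which encodes a nonclassical heavy chain that presents leader peptides of other class I chains, followed another order. It had 41.0 CPM in HFD macrophages and 41.7 CPM in chow macrophages, 27.9 (HFD) and 22.5 (chow) CPM in delta cells, and 22.9 (HFD) and 17.6 (chow) CPM in PP cells. Endothelial cells had 12.9 CPM in HFD and 15.1 CPM in chow, alpha cells 15.4 (HFD) and 10.7 (chow) CPM, and beta cells 6.63 (HFD) and 5.79 (chow) CPM. The Poisson intervals of endothelial and alpha cells overlapped for this gene in both libraries. Without hormone genes in the totals, endothelial cells were at 0.804 of the beta level of H2-T23 in HFD and at 1.06 in chow.

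**Figure D1:**
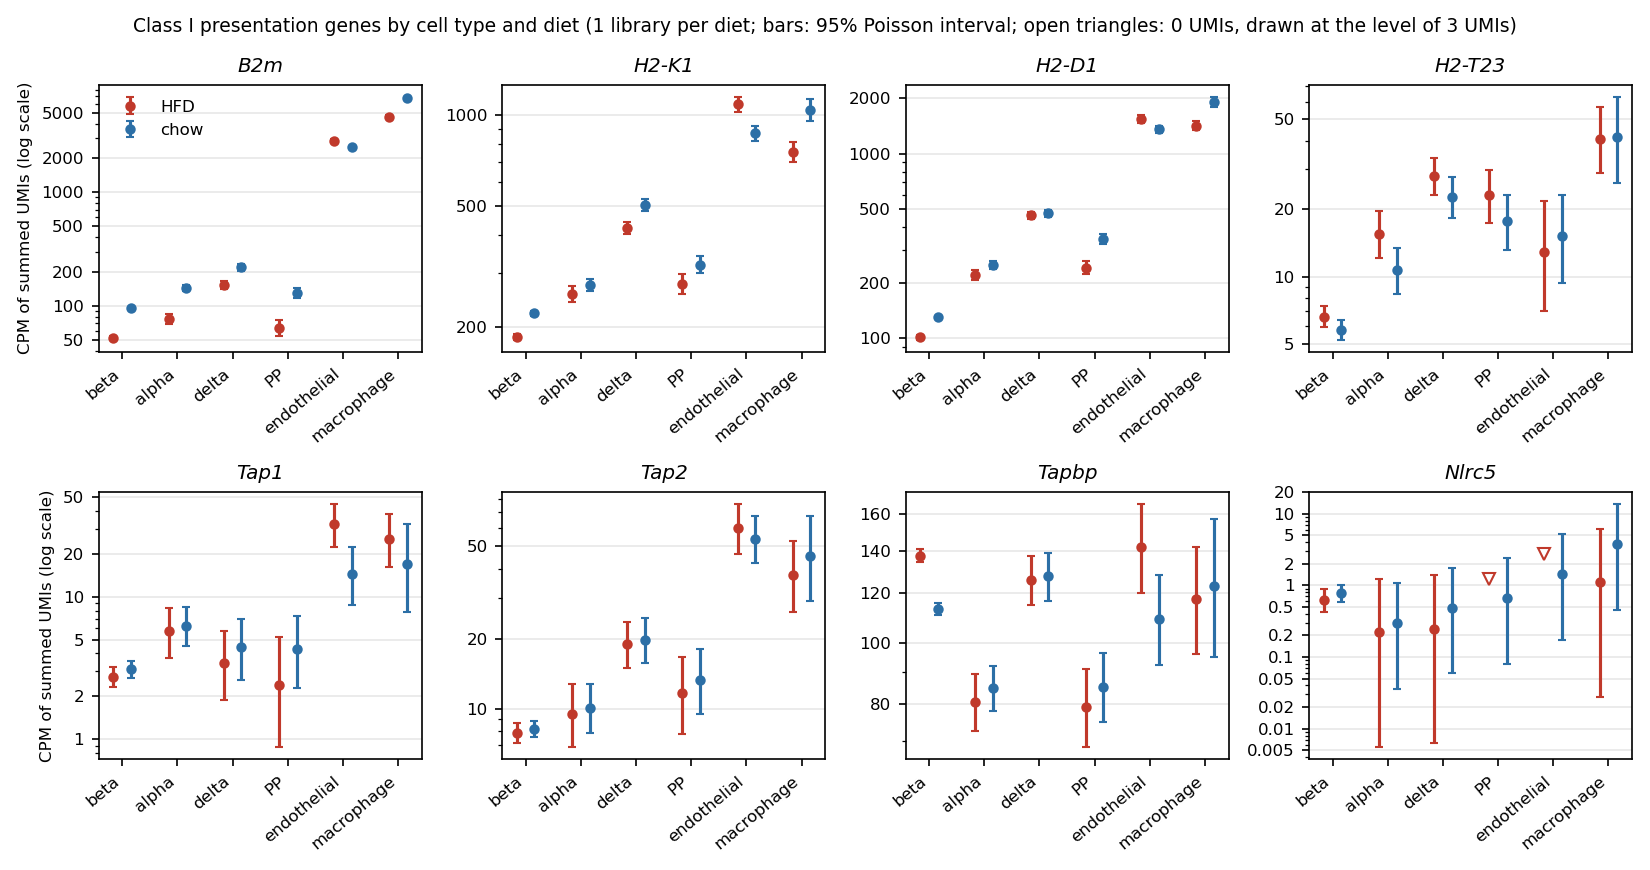
Level of each of the 8 genes in 6 islet cell types (CPM of summed UMIs, log scale), with the HFD library left of the chow library. Points are 1 library each, bars are exact Poisson 95% intervals and open triangles mark 0 UMIs, drawn at the level of 3 UMIs; B2m spans 52.5 to 6707 CPM and Tapbp only 79.3 to 142 CPM.

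The transport genes were scarce, and on the full totals the loading gene was level across types. Tap1 had 32.2 CPM in HFD endothelial cells and 14.4 CPM in chow endothelial cells, 25.5 (HFD) and 17.0 (chow) CPM in macrophages, and 2.41 to 6.22 CPM in the endocrine types of both libraries. Tap2 had 59.8 CPM in HFD endothelial cells and 53.8 CPM in chow endothelial cells, 37.7 (HFD) and 45.5 (chow) CPM in macrophages, 19.0 (HFD) and 19.8 (chow) CPM in delta cells, and 7.89 to 13.3 CPM in the other endocrine types. Tapbp ranged from 79.3 CPM in HFD PP cells to 142 CPM in HFD endothelial cells. Beta cells, which were lowest for the light chain and both classical heavy chains on the full totals, had 137 CPM in HFD and 113 CPM in chow. With hormone genes left out of the totals, Tapbp was highest in beta cells. Alpha cells were then at 0.341 of the beta level in HFD and 0.417 in chow. Delta cells were at 0.524 (HFD) and 0.663 (chow), and PP cells at 0.507 (HFD) and 0.696 (chow). Endothelial cells were at 0.426 (HFD) and 0.390 (chow), and macrophages at 0.350 (HFD) and 0.441 (chow). Nlrc5 was barely detected: 33 UMIs in HFD beta cells and 55 in chow beta cells, with 0 to 2 UMIs in each other type. Its level outside beta cells was below what this depth can compare. In HFD endothelial cells it had 0 UMIs, where a limit of 3 UMIs is 2.76 CPM and the Poisson interval ends at 3.39 CPM. In HFD PP cells it also had 0 UMIs, with 1.21 CPM as the level of 3 UMIs and 1.48 CPM as the end of the interval.

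Hormone messages took 59.8% of UMIs in HFD beta cells and 60.5% in chow beta cells, but 2.91% in HFD endothelial cells and 2.64% in chow endothelial cells. This enters every level set between types. The 8 genes summed to 6986 CPM in HFD macrophages and 9889 CPM in chow macrophages, 5689 (HFD) and 4909 (chow) CPM in endothelial cells, and 1217 (HFD) and 1370 (chow) CPM in delta cells. They summed to 698 (HFD) and 915 (chow) CPM in PP cells, 665 (HFD) and 780 (chow) CPM in alpha cells, and 494 (HFD) and 578 (chow) CPM in beta cells. Macrophages were 14.1-fold above beta cells in HFD and 17.1-fold in chow, which became 5.79-fold in HFD and 6.93-fold in chow when hormone genes were left out of the totals. For endothelial cells the folds over beta cells were 11.5 in HFD and 8.49 in chow, and 4.76 in HFD and 3.44 in chow without hormone genes. Alpha cells exceeded beta cells 1.34-fold in HFD and 1.35-fold in chow on the full totals. They lay at 0.780 of the beta level in HFD and 0.750 in chow without hormone genes, so the order of these neighbours depends on the denominator.

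The balance of light to heavy chain sorted the cell types by itself and needs no denominator. Per UMI of H2-K1 and H2-D1 together, macrophages held 2.12 UMIs of B2m in HFD and 2.27 in chow, and endothelial cells 1.07 in HFD and 1.12 in chow. Beta cells held 0.184 (exact binomial 95% interval 0.176 to 0.191) in HFD and 0.275 (0.267 to 0.282) in chow. Alpha cells held 0.162 in HFD and 0.273 in chow, delta cells 0.172 in HFD and 0.223 in chow, and PP cells 0.124 in HFD and 0.195 in chow. In the endocrine types the B2m count was therefore well under that of the heavy chains. Its share was lower in HFD than in chow in all 4. The binomial intervals did not overlap, but they cover counting only. The 5 richest cells held 27.0% of the B2m UMIs of HFD PP cells and 40.4% of those of chow PP cells. Their part in the balance was not tested. On the log2 scale, HFD over chow, the balance was -0.58 in beta, -0.76 in alpha, -0.37 in delta and -0.66 in PP cells, against -0.07 in endothelial cells and -0.10 in macrophages. The choice between the heavy chains also differed by type. UMIs of H2-K1 per UMI of H2-D1 were 1.82 in HFD beta cells and 1.70 in chow beta cells, 1.17 in HFD and 1.10 in chow alpha cells, 0.702 in HFD and 0.640 in chow endothelial cells, and 0.532 in HFD and 0.541 in chow macrophages. In delta cells they were 0.913 (0.855 to 0.976) in HFD and 1.06 (0.996 to 1.13) in chow, and in PP cells 1.14 (1.02 to 1.28) in HFD and 0.929 (0.850 to 1.01) in chow, so these types moved in opposite directions across equal counts.

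**Figure D2:**
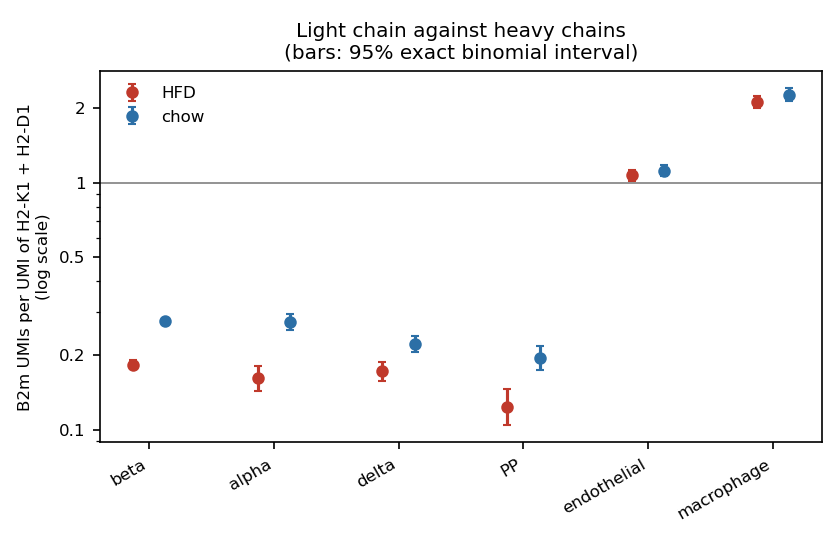
UMIs of B2m per UMI of H2-K1 plus H2-D1 (log scale) in 6 cell types, with HFD left of chow; bars are exact binomial 95% intervals of counting and the grey line marks equal counts. Endocrine types lie between 0.124 and 0.275, each with HFD below chow, while endothelial cells lie near 1.07 to 1.12 and macrophages at 2.12 to 2.27.

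HFD was compared with chow as the log2 ratio of CPM with 0.5 counts added. The median log2 ratio of all genes of that type with at least 50 UMIs in both libraries together was subtracted from it. The result is called the relative log2 ratio here, and 1.5-fold or more on it was counted as a difference. That median was 0.20 in beta cells and between -0.0038 and 0.09 in the other types. Each diet has 1 library, so no difference has a replicate check, no test was possible, and the intervals cover counting only. Library and diet cannot be told apart.

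B2m was at least 1.5-fold lower in HFD in all 4 endocrine types and in macrophages. In beta cells it had 2775 UMIs in HFD and 6890 in chow, a relative log2 ratio of -1.08 (counting interval -1.14 to -1.01), and 1.66% of the 12382 tested genes had a lower ratio. The ratio was -0.89 in alpha cells (-1.07 to -0.71), -0.59 in delta cells (-0.74 to -0.44), -1.11 in PP cells (-1.38 to -0.84) and -0.63 in macrophages (-0.69 to -0.56). In these types 1.51%, 2.40%, 0.547% and 5.95% of tested genes were lower still. Endothelial cells were at 0.15 (0.08 to 0.22), with 2814 CPM in HFD and 2491 CPM in chow. In delta cells and macrophages the value lay close to the 1.5-fold limit, which is 0.58 on this scale.

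The other 7 genes parted less between the diets in most types. Of the 8 genes, 1 was 1.5-fold lower in beta cells and 0 higher, where 8.94% of all tested genes were lower and 4.28% higher. Among tested genes with at least 20 CPM in a library, 15.1% were lower and 0.832% higher. Relative log2 ratios in beta cells were -0.46 for H2-K1, -0.56 for H2-D1, -0.01 for H2-T23, -0.37 for Tap1, -0.25 for Tap2, 0.08 for Tapbp and -0.49 for Nlrc5. Thus 7 of 8 were below the median gene, and the median of the 8 was -0.41. The counting intervals of H2-T23 (-0.22 to 0.20) and Nlrc5 (-1.17 to 0.15) included the median gene. Within beta clusters 0 and 1, described below, the summed 8 genes were at 0.014 and -0.0035. Of the 7 genes with enough UMIs in alpha cells, 1 was lower and 0 higher, where 4.91% of all tested genes were lower and 4.52% higher, and their median was -0.09. In delta cells 1 of 6 was lower and 0 higher, where 2.43% of tested genes were lower and 4.8% higher, with a median of -0.13. In PP cells 2 of 6 were lower and 0 higher, where 4.97% of tested genes were lower and 8.18% higher, with a median of -0.28. The second gene in PP cells was H2-D1, which had 241 CPM in HFD and 344 CPM in chow, a ratio of -0.60 (-0.75 to -0.46).

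Endothelial cells did not share the lower ratios of this set, but 5 of the 6 tested genes were within 1.5-fold there. All 6 genes with enough UMIs lay above the median gene there, with a median of 0.23, and 1 of 6 was 1.5-fold higher in HFD, where 6.51% of all tested genes were higher and 4.44% lower. That gene was Tap1, with 35 UMIs in HFD endothelial cells and 20 in chow endothelial cells, a relative log2 ratio of 1.13 (0.31 to 2.01) on few molecules. H2-K1 stood at 0.30 and Tapbp at 0.35 in these cells, where 79.9% and 83.4% of tested genes had a lower ratio. For B2m, H2-D1 and Tap2 that share was 66.9%, 68.1% and 64.6%, and for the summed 8 genes 70.3%. H2-T23 was under the count minimum, with 14 UMIs in HFD and 21 in chow endothelial cells, and its ratio was -0.23. In macrophages all 6 tested genes lay below the median gene, with H2-K1 at -0.54 and H2-D1 at -0.52, and 1 of 6 was 1.5-fold lower, where 6.55% of tested genes were lower and 10.2% higher. The counting intervals of H2-T23, Tap2 and Tapbp included the median gene there. Tap1 was under the count minimum, with 23 UMIs in HFD and 9 in chow macrophages, and its ratio was 0.45. Nlrc5 was under the minimum as well. Ccl5, a chemokine listed here as a T or NK cell marker, had 1664 CPM in HFD macrophages and 6604 CPM in chow macrophages. It made up all UMIs of that list, with Cd3e, Cd3g, Cd3d and Nkg7 at 0, and its part in the macrophage values was not tested.

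**Figure D3:**
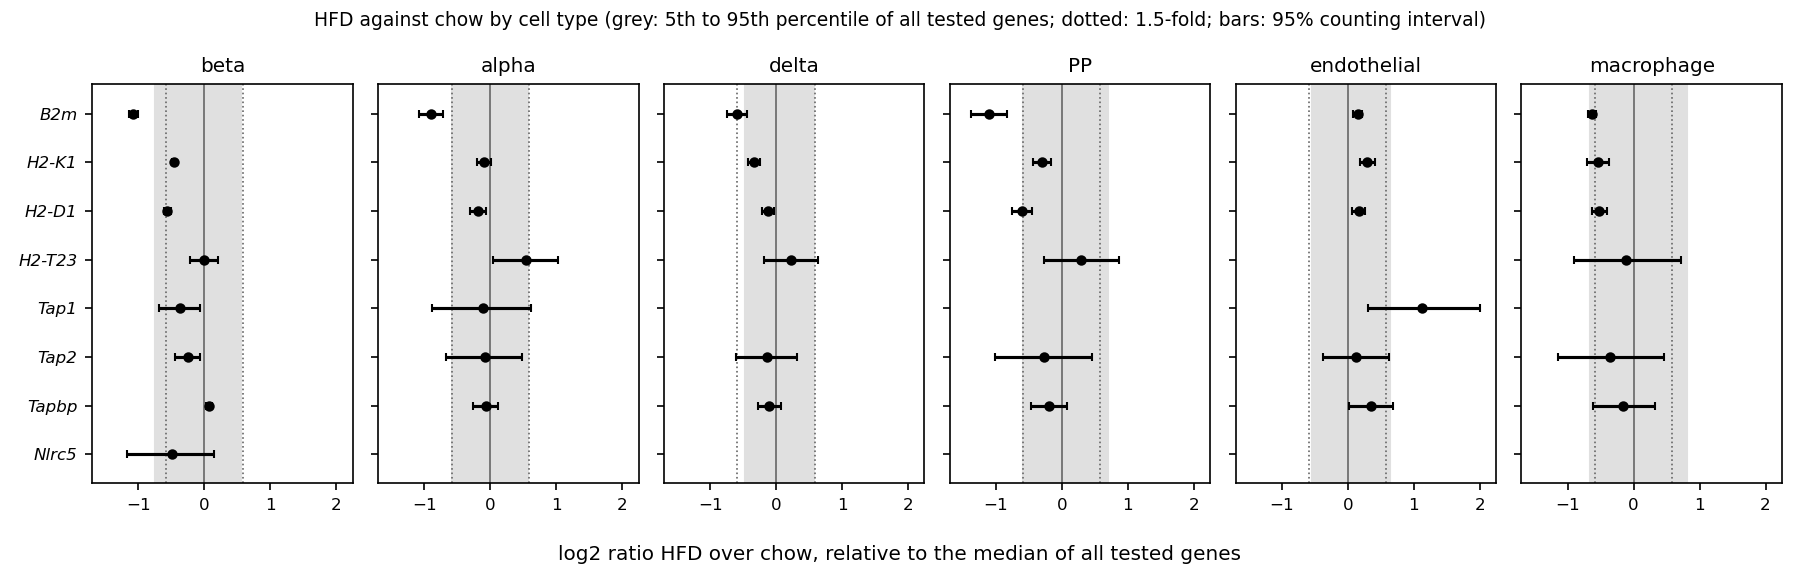
Log2 ratio of HFD over chow for each gene, relative to the median of all tested genes, in 6 cell types; bars are 95% counting intervals, grey bands the 5th to 95th percentile of all tested genes and dotted lines 1.5-fold. B2m lies left of the band's centre in all types but endothelial cells (0.15), and Tap1 in endothelial cells (1.13) is the only point past 1.5-fold on the right.

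RNA of macrophages and endothelial cells, both rich in B2m, can enter droplets of other cells, and no cell type in these libraries lacks class I genes to serve as a blank. Scaled by their marker UMIs, such RNA could account for 33.7% of B2m UMIs in HFD beta cells and 18.8% in chow beta cells. That leaves 34.8 CPM in HFD and 78.2 CPM in chow. With these UMIs taken off, a step added after the data had been seen, the relative ratio of B2m in beta cells was -1.37. The same source could give 2.24% of H2-K1 UMIs in HFD beta cells and 1.64% in chow beta cells, and 6.70% of H2-D1 UMIs in HFD and 4.83% in chow. In the other endocrine types it could give between 13.6% and 26.9% of B2m UMIs. These shares are estimates and not upper limits. RNA of cells that met no type rule, with 458 (HFD) and 692 (chow) CPM of B2m, was not included. Plvap, Kdr and Flt1 UMIs in beta cells came to 13.9 CPM in HFD and 9.52 CPM in chow, and C1qa, C1qb and Lyz2 UMIs to 38.7 CPM in HFD and 25.4 CPM in chow.

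In PP cells the B2m difference rested in part on few cells. Without the 1 HFD cell and 3 chow cells that also met the endothelial or macrophage rule, the ratio was -0.59 in place of -1.11, and without the 2 HFD cells and 4 chow cells rich in interferon-induced UMIs it was -0.67. B2m UMIs were uneven within beta cells as well: 1% of the cells held 22.5% of them in HFD and 18.0% in chow, and the highest cell had 55 UMIs in HFD and 170 in chow. A B2m UMI was seen in 42.1% of HFD beta cells and 55.4% of chow beta cells, and, with every cell thinned to 4000 UMIs and 24 shallower chow beta cells left out, in 14.4% of HFD and 24.7% of chow beta cells. The thinned relative ratio in beta cells was -1.17.

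Beta cells were then ordered by the summed UMIs of 8 interferon-induced genes (Ifit1, Ifit3, Rsad2, Irf7, Isg15, Oasl2, Rtp4 and Usp18). In the 2052 HFD and 3079 chow beta cells with none, B2m had 45.0 CPM in HFD and 76.5 CPM in chow. With 1 to 2 such UMIs it had 56.8 CPM in HFD and 101 CPM in chow, and with 3 to 9 it had 103 CPM in HFD and 212 CPM in chow. With 10 or more it had 192 CPM in 15 HFD cells and 792 CPM in 37 chow cells. B2m was thus higher at each step in both libraries and lower in HFD than in chow within each step. H2-K1 ran between 175 and 224 CPM over the steps in HFD and between 211 and 473 CPM in chow. H2-D1 ran between 94.5 and 142 CPM in HFD and between 122 and 382 CPM in chow. Cells with more UMIs fall more often into the upper steps, with medians of 15877 UMIs in the lowest and 23306 in the highest step in HFD, and 14074 and 17103 in chow. C1qa, C1qb and Lyz2 reached 198 CPM in the HFD cells and 64.9 CPM in the chow cells with 3 to 9 UMIs, against 29.2 CPM in HFD and 21.3 CPM in chow in cells with none, and 19.2 CPM in HFD and 157 CPM in chow in the cells with 10 or more. The part of either in this gradient was not tested. Without the cells of the highest step the ratio of B2m in all beta cells was -1.0.

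**Figure D4:**
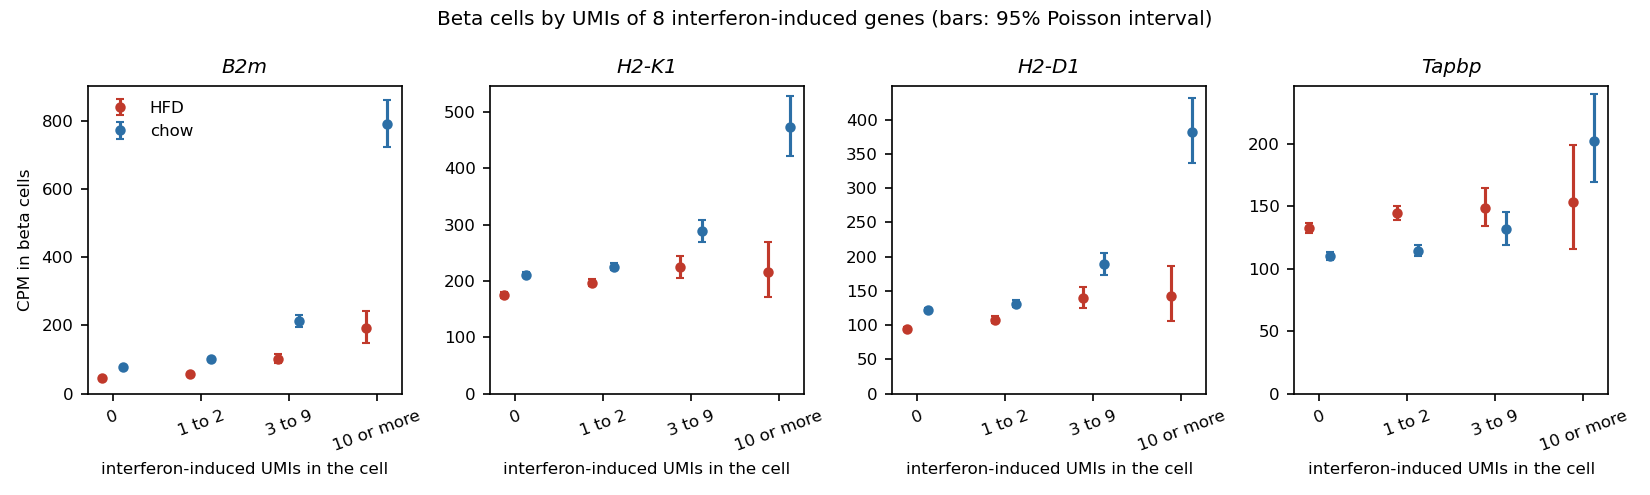
CPM of B2m, H2-K1, H2-D1 and Tapbp in beta cells grouped by their UMIs of 8 interferon-induced genes, with HFD left of chow and Poisson 95% intervals as bars. B2m reaches 192 CPM in HFD and 792 CPM in chow in the cells with 10 or more such UMIs, while Tapbp lies between 133 and 153 CPM in HFD and between 110.3 and 202 CPM in chow.

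The diets filled different groups of beta cells. Clustered without the 8 genes and the pathway genes, beta cells formed 9 clusters, of which 4 held at least 100 cells in each library. These are numbered only. Cluster 0, led by Gatm and Abhd2, held 60.2% of HFD beta cells and 8.40% of chow beta cells, and cluster 3, led by Cib3 and Dct, held 4.39% in HFD and 31.7% in chow. Within clusters, B2m had 47.2 CPM in HFD and 73.5 CPM in chow in cluster 0, 35.7 (HFD) and 53.2 (chow) CPM in cluster 1, 37.4 (HFD) and 89.6 (chow) CPM in cluster 3, and 44.0 (HFD) and 131 (chow) CPM in cluster 4. Its relative ratios there were -0.50, -0.64, -1.08 and -1.65, all of the same sign and 1 of 4 short of 1.5-fold. In the same order, 3.37%, 4.79%, 6.11% and 5.62% of all tested genes were 1.5-fold lower. A ratio below that of B2m was found for 5.08%, 3.81%, 1.24% and 0.103% of them. Cluster 1 was led by Cox6a2 and Pdyn, and cluster 4, where B2m had its lowest ratio, by Ppy and Pyy. The heavy chains did not keep their direction. H2-K1 was at 0.09 and H2-D1 at 0.13 in cluster 0, at -0.04 and -0.06 in cluster 1, and between -0.35 and -0.25 in clusters 3 and 4. A further cluster, led by Lcn2 and Spp1, held 29.0% of chow beta cells but 52 HFD cells, under the minimum of 100, and was not compared.

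**Figure D5:**
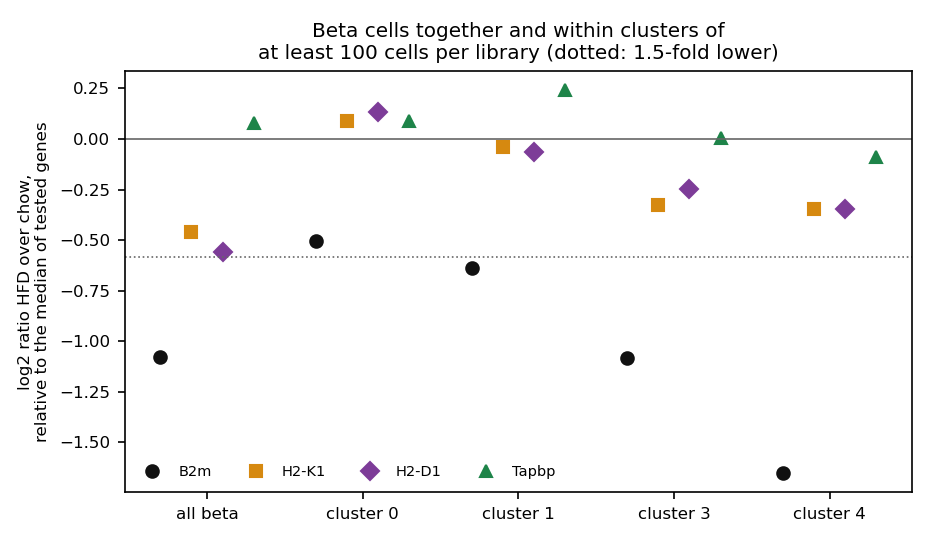
Relative log2 ratio of HFD over chow of B2m, H2-K1, H2-D1 and Tapbp in all beta cells and within the 4 beta clusters with at least 100 cells in each library. B2m lies between -1.65 and -0.50 in every cluster, whereas H2-K1 and H2-D1 lie on both sides of 0.

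Of 7 lists of genes around the 8, the proteasome lists had the lowest medians of the relative log2 ratio in beta cells. Ratios of this kind stand in parentheses after the levels from here on. The immunoproteasome subunits Psmb8, Psmb9 and Psmb10 and the genes of the activator subunits, Psme1 and Psme2, were all 5 at least 1.5-fold lower, with a median of -1.04. Psmb10 had 23.9 CPM in HFD and 44.6 CPM in chow (-1.10), Psmb8 20.7 (HFD) and 38.0 (chow) CPM (-1.08) and Psme2 82.2 (HFD) and 147 (chow) CPM (-1.04). Psme1 had 35.4 (HFD) and 54.6 (chow) CPM (-0.83) and Psmb9 10.8 (HFD) and 15.6 (chow) CPM (-0.74). The standard catalytic subunits, which all cells use, were lower too, in 3 of 3, with a median of -1.35. They were Psmb5 with 46.2 CPM in HFD and 103 CPM in chow (-1.35), Psmb6 with 57.0 (HFD) and 126 (chow) CPM (-1.35) and Psmb7 with 38.3 (HFD) and 58.8 (chow) CPM (-0.82). These counts stand beside 15.1% of beta-cell genes with at least 20 CPM that were 1.5-fold lower. The immunoproteasome cuts peptides suited to class I, and the activator opens the proteasome's core. In PP cells 4 of 5 immunoproteasome and activator genes were lower, Psmb8 (-1.0), Psmb10 (-0.99), Psmb9 (-0.80) and Psme1 (-0.63), and 0 of 3 standard subunits, where 4.97% of all tested genes were lower. In alpha, delta and endothelial cells and in macrophages 0 of either list passed 1.5-fold in either direction.

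The loading helpers of the endoplasmic reticulum were lower in HFD beta cells in 2 of 7, where 8.94% of all tested genes and 15.1% of those with at least 20 CPM were lower. These were the lectin chaperone Calr, with 167 CPM in HFD and 253 CPM in chow (-0.80), and the disulphide isomerase Pdia3, with 113 (HFD) and 158 (chow) CPM (-0.69). The trimming peptidase Erap1 (-0.07) and the chaperone Canx (-0.25) had the highest ratios of the list. In the other types 0 of the tested members passed 1.5-fold. Of 24 regulators of class I transcription in beta cells, 2 were lower and 0 higher, a share near the 8.94% of all tested genes. They were the interferon receptor chain Ifnar2, with 7.55 CPM in HFD and 10.99 CPM in chow (-0.74), and the DNA-binding factor subunit Rfxap, with 7.91 (HFD) and 10.4 (chow) CPM (-0.59). The kinase Jak2 (0.38) and the factor Irf2 (0.36) had the highest ratios, and the list's median ratio was 0.02. Elsewhere 1 of 19 tested was lower in alpha cells, Irf9 (-0.99), against 4.91% of all tested genes. In delta cells 1 of 20 was lower, Socs3 (-0.70), against 2.43%. There 2 were higher, Relb (0.99) and Ifngr2 (0.70), against 4.8%. In PP cells 2 of 13 were higher, Rela (1.11) and Creb1 (0.65), against 8.18%. In endothelial cells 1 of 19 was lower, Nfyc (-0.64), against 4.44%. In macrophages 1 of 8 was lower, Ifnar1 (-0.70), against 6.55%, and 1 higher, Socs3 (1.5), against 10.2%.

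Interferon-induced genes had 36.7 CPM in HFD beta cells and 46.0 CPM in chow beta cells, summed over the 8. In beta cells 3 of 8 were lower, against 8.94% of all tested genes: Isg15 (-1.36), Irf7 (-1.27) and Ifit3 (-1.11), with Oasl2 (-0.05) and Ifit1 (-0.26) highest. The summed level was below that of chow in every other type as well, by less than 1.5-fold in beta, delta, PP and endothelial cells. It was 27.3 CPM in HFD and 56.3 CPM in chow in alpha cells, 107 (HFD) and 133 (chow) CPM in delta cells, and 93.4 (HFD) and 132 (chow) CPM in PP cells. It was 244 (HFD) and 309 (chow) CPM in endothelial cells, and 179 (HFD) and 456 (chow) CPM in macrophages. Of the single genes, 3 of 4 tested in alpha cells were lower, Rsad2 (-1.37), Ifit1 (-1.06) and Irf7 (-0.77), against 4.91% of all tested genes. In delta cells Isg15 (-0.76) and Rtp4 (-0.67) were lower and Rsad2 (0.79) higher, of 7 tested, against 2.43% of all tested genes lower and 4.8% higher. In PP cells Rsad2 (-1.09), Ifit1 (-0.92), Usp18 (-0.87) and Ifit3 (-0.75) were lower and Isg15 (0.67) higher, of 5 tested, against 4.97% lower and 8.18% higher. In endothelial cells 1 of 6 was lower, Irf7, with 19.3 CPM in HFD and 40.9 CPM in chow (-1.08), against 4.44% of all tested genes. In macrophages 3 of 3 were lower, Rtp4 (-2.41), Irf7 (-1.83) and Isg15 (-0.75), against 6.55%. Cells with 10 or more UMIs of the 8 genes were unevenly spread. There were 1 in HFD and 6 in chow macrophages, 0 in HFD and 2 in chow alpha cells, and 2 in HFD and 4 in chow PP cells. The part of these cells in the ratios of this list was not tested.

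Across the 12 profiles of 6 types in 2 libraries, the gene whose level ran most like the sum of the 8 was Aldh2, a mitochondrial aldehyde dehydrogenase, with Pearson's r of 0.991 on the log2 scale over 9609 genes compared. Cklf, Ethe1, Skap2 and Bst2, the interferon-induced membrane protein tetherin, came next (0.985 to 0.990), and Got1, Capza2, Capg, Mvp and Cers2 completed the first 10 down to 0.983. These profiles share libraries and hormone load, so the values only describe the order. Bst2 had 613 CPM in HFD macrophages and 828 CPM in chow macrophages, 199.6 (HFD) and 213 (chow) CPM in endothelial cells, and 6.57 (HFD) and 12.1 (chow) CPM in beta cells. Among the 8 themselves, r with the sum was 0.992 for B2m, 0.976 for H2-D1, 0.969 for H2-K1, 0.957 for Tap2 and 0.900 for Tap1. It was 0.623 for H2-T23, 0.614 for Nlrc5 and 0.440 for Tapbp. Each gene is itself part of this sum, so the abundant genes have a high r by construction. B2m alone made up 4594 of the 6986 CPM in HFD macrophages. Nlrc5 was barely detected outside beta cells, so its r rests on few UMIs.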

How the data were processed

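Per the file headers, the deposited values are raw UMI counts, 1 whole number for each gene in each barcode. Per the submitters' processing notes, Cell Ranger 2.1.0 was used. The genome build, annotation and rule for keeping barcodes were not given in the sources used here.

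A cell needed at least 500 genes and at most 10% mitochondrial UMIs, which removed 145 HFD and 122 chow barcodes. No doublets were removed, since Scrublet in scanpy 1.11.5 marked 0.159% of HFD cells and 0.0470% of chow cells at its own threshold. These low shares do not show that doublets were rare. Removing the top 5% of Scrublet scores was an alternative. A cell that met more than 1 type rule was kept and went to the first type in the order given. Among beta cells, 87 in HFD and 97 in chow met another rule as well. A Python 3.11.15 program summed counts per type and library. Types needed 50 cells in both libraries. The ratio step, checked on simulated 2-fold changes, recovered 99.0% of them in beta cells over 12398 genes and 92.3% in macrophages over 2799 genes. Of unchanged genes it called 0.935% in beta cells and 5.31% in macrophages. The simulated counts held counting noise only, with no spread between cells, mice or libraries. These shares therefore give no error rate for the calls made here. Beta cells were clustered with 2000 variable genes, 30 components, 15 neighbours and Leiden resolution 0.5 (igraph 0.11.9). Likeness used log2 of CPM plus 10. No 98-base window in the last 500 bases of the GENCODE release 21 transcripts of the 8 genes was shared with another gene, except 10.4% for H2-T23.

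The 8 genes and all lists were chosen with earlier results of these data known. All 8 are named; from the 7 pathway lists, the genes past 1.5-fold are named, and for beta cells also the 2 highest and 2 lowest ratios of the longer lists. Outside beta cells those extremes are not printed. Alternatives changed scaling, count minimum, added count, fold, cell filter, doublets, type thresholds and order, depth and the cells included.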

Additional observations from a re-analysis of the deposited data

Results flagged for a closer look

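B2m differed in direction between cell types: its relative log2 ratio of HFD over chow was -1.08 in beta, -0.89 in alpha, -0.59 in delta and -1.11 in PP cells and -0.63 in macrophages, against 0.15 in endothelial cells. H2-D1 stood at -0.60 in PP cells and 0.16 in endothelial cells, and Tap1 at 1.13 in endothelial cells and -0.37 in beta cells. With 1 library per diet these differences between types were not tested.

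The cells that met no type rule, which enter no comparison, also held class I UMIs: the 8 genes summed to 1084 CPM in 148 HFD cells and 1656 CPM in 139 chow cells.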

How the results depend on the processing

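Of the ratios of single genes, 1 changed sign and passed 1.5-fold: H2-T23 in beta cells (-0.0067), at 0.72 within cluster 1. B2m kept its sign in every type under each alternative run: -1.65 to -0.50 in beta cells, -0.90 to -0.63 in alpha, -0.71 to -0.49 in delta, -1.55 to -0.59 in PP cells and -0.74 to -0.52 in macrophages, with 20 of 21, 17 of 17, 13 of 17, 17 of 17 and 12 of 16 past 1.5-fold. The ratio of the summed 8 genes moved as follows; the cause was not tested. In beta cells (-0.43) it was -0.23 with nothing subtracted, -0.37 thinned to 4000 UMIs, -0.40 without interferon-high cells, 0.014, -0.0035 and -0.33 within clusters 0, 1 and 3. In delta cells (-0.25) it was -0.17 with nothing subtracted, and in endothelial cells (0.19) 0.32 thinned. In PP cells (-0.48) it was -0.39 with nothing subtracted and -0.39 without cells meeting a stromal or any second rule, or with stromal rules first. In macrophages (-0.58) it was -0.50 with nothing subtracted, -0.64 without a count minimum, -0.53 with doubled thresholds, -0.69 with stromal rules first, -0.50 without interferon-high cells and -0.47 without the 5 richest cells of each library. The count of 1 gene lower in beta cells became 2 with doubled thresholds, with thinning and within cluster 3. It also became 2 with stromal RNA taken off and without cells meeting a second rule, and 0 within cluster 0. Tap1 joined with thinning and in cluster 3, and H2-D1 in the other 3. Of all tested genes, 6.11% were lower in cluster 3 and 3.37% in cluster 0. Tap1 had 1.27 CPM in the 136 HFD cells of cluster 3, which is few molecules. Folds of the summed level over beta cells were, for macrophages in HFD (14.1), 5.79 without hormone genes, 14.8 thinned and 13.6 with doubled thresholds, and in chow (17.1) 6.93 without hormone genes, 18.5 thinned, 15.5 with doubled thresholds and 18.1 as a mean over cells. For endothelial cells they were in HFD (11.5) 4.76 without hormone genes, 12.1 as a mean over cells and 12.3 thinned, and in chow (8.49) 3.44 without hormone genes and 8.79 as a mean over cells. No paired analysis was possible because each diet has 1 library. Depth limits Nlrc5 outside beta cells, H2-T23 in endothelial cells, and Tap1 in delta cells, PP cells and macrophages. Cells per mouse, replicate spread and the HFD and chow libraries as batches cannot be separated.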

Other observations

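Class II genes, which serve presentation to CD4 T cells and are led in macrophages by the invariant chain Cd74 (15382 CPM in HFD and 15529 CPM in chow), showed no common direction in the endocrine types. Relative log2 ratios of HFD over chow stand in parentheses. In alpha cells 3 of 3 tested members were 1.5-fold lower in HFD, against 4.91% of all tested genes, on few UMIs. Cd74 had 8.16 CPM in HFD and 31.4 CPM in chow (-1.93), from 37 and 212 UMIs. H2-Aa had 1.54 (HFD) and 7.85 (chow) CPM (-2.26), from 7 and 53 UMIs. H2-Eb1 had 2.2 (HFD) and 6.52 (chow) CPM (-1.51), from 10 and 44 UMIs. In beta cells 2 of 5 were higher, against 4.28% of all tested genes: Cd74 with 15.6 CPM in HFD and 8.10 CPM in chow (0.75) and H2-Eb1 with 3.82 (HFD) and 2.1 (chow) CPM (0.66), while H2-DMa (0.05) and H2-Ab1 (0.12) were lowest. Macrophage markers summed to 8.82 CPM in HFD alpha cells and 18.4 CPM in chow alpha cells, and to 26.5 CPM in HFD beta cells and 16.6 CPM in chow beta cells. Ccl5, abundant in the macrophages, had 3 UMIs in HFD alpha cells and 282 UMIs in chow alpha cells. The part of RNA or cells of other types in these class II values was not tested.

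Other class I genes were split by cell type. In endothelial cells H2-Q4 had 102 CPM in HFD and 55.3 CPM in chow (0.86), H2-Q6 78.2 (HFD) and 44.5 (chow) CPM (0.79) and H2-Q7 145 (HFD) and 92.6 (chow) CPM (0.63), 3 of 8 tested genes higher, against 6.51% of all tested genes. In beta cells H2-Q7 (-1.38), H2-M3 (-0.88) and H2-Q6 (-0.75) were lower, 3 of 8 against 8.94% of all tested genes, with H2-Q4 (0.08) and H2-Q2 (-0.02) highest. In macrophages H2-M2 (-1.96) and H2-Q7 (-1.66) were lower and the iron regulator Hfe (0.88) higher, of 5 tested, against 6.55% of all tested genes lower and 10.2% higher. Of the windows near the end of H2-Q6, 24.4% are shared with other genes, so its counts are uncertain. H2-Q2, singled out after its values were seen, had the reverse pattern of the classical genes: 53.2 CPM in HFD beta cells and 46.9 CPM in chow beta cells, and 94.3 (HFD) and 97.7 (chow) CPM in alpha cells, but 0 UMIs in HFD endothelial cells and 6 in chow endothelial cells, and 1 UMI in the macrophages of each library.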
